A study of Homo sapiens with 4 samples.

Results

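The genes described here encode 10 secreted matrix proteins, TGFBI, POSTN, THBS1, THBS2, SPARC, SPOCK1, TNC, FN1, VCAN and HSPG2. Every probe set of the array whose platform annotation gives 1 of these symbols, and no other, was taken, which gave 33 of the 54613 probe sets that are not array controls. A probe set is a group of short probes that reads 1 transcript or several forms of it. SPOCK1, TGFBI and THBS2 had 1 probe set each, HSPG2 and SPARC had 2, TNC had 3, POSTN had 4, VCAN had 5, and THBS1 and FN1 had 7 each.

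RNA came from LSTGFBR2, a human colon cancer epithelial cell line with a doxycycline-inducible construct of TGFBR2, the type II TGF-β receptor. The 4 arrays form 2 groups of 2, untreated cells and cells given 5 ng/ml recombinant human TGF-β1 for 16 hours. All cells carry the construct, and neither doxycycline by array nor the number of clones is stated in the labels. The 2 TGFBR2 probe sets disagreed. Probe set 207334_s_at read 9.44 and 9.55 untreated against 14.70 and 14.92 with TGF-β1, while 208944_at read 10.47 and 10.81 against 10.58 and 10.76, with overlap between the groups (log2 fold change 0.031, limma adjusted p = 0.980 over all probe sets). By 207334_s_at the log2 fold change was 5.32 (limma adjusted p = 0.000602 over all probe sets). This difference falls along the same 2 groups as the treatment. The part of the receptor in the differences given here therefore cannot be told apart from that of TGF-β1 and was not tested.

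Matricellular proteins are secreted into the extracellular matrix, where they bind structural fibres, growth factors and integrins and change how cells attach and respond rather than bearing load themselves. Proteoglycans carry long sulfated sugar chains that hold water and growth factors. Most of these proteins are known chiefly as products of fibroblasts and other stromal cells in the intestine, and several are known targets of TGF-β.

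TGFBI and POSTN belong to the same family, built of repeated fasciclin domains, and are shown together because TGFBI had the highest fold change of the 10 genes while POSTN stayed dim. For 9 of the 10 genes, RefSeq (GRCh38.p14) gave a promoter, of which the 250 bases before the annotated start were searched. The motifs were the SMAD box CAGAC, the AP-1 site TGANTCA and the GC box GGGCGG, each on both strands, with overlapping matches counted separately. Capitals mark every match in the windows of TGFBI (chr5:136028738-136028987, plus strand) and POSTN (chr13:37598769-37599018, minus strand).
TGFBI: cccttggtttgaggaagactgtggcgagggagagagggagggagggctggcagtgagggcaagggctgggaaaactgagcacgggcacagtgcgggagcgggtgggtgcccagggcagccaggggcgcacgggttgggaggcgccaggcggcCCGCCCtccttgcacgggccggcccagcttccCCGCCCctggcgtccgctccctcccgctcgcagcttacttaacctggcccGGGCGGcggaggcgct
POSTN: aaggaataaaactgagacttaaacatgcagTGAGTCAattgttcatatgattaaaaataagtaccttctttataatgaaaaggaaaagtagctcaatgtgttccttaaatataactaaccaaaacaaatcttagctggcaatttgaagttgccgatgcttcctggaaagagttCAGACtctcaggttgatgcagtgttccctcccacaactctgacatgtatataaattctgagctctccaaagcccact
The TGFBI window held 3 GC boxes, 0 SMAD boxes and 0 AP-1 sites, and 72.8% of its bases were G or C. The POSTN window held 1 SMAD box, 1 AP-1 site and 0 GC boxes, with 36.4% G or C. Among 27305 RefSeq windows of the same length, 37.8% held a SMAD box, 6.6% an AP-1 site and 42.3% a GC box. GC boxes in the other windows numbered 8 (HSPG2), 6 (FN1), 4 (THBS1), 1 (TNC), 1 (VCAN), 0 (THBS2) and 0 (SPARC). None of these genes passed the test given below, and the gene without a promoter was SPOCK1. These matches are letters in a window and do not show that a factor binds there.

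Values are RMA values on the log2 scale, on which a step of 1 is a 2-fold difference. RMA gives no detection call. A probe set was therefore called dim in a group when it lay below the median of all probe sets, 6.57 to 6.61, on each array of that group. By this rule 17 of the 33 probe sets were dim in both groups, against 46.9% of all probe sets. A further 5 were dim in the untreated arrays only, and 11 were dim in neither group. As a guide to what dim means here, probe sets of olfactory receptor genes, which colon cells are not known for, had a median of 5.32 to 5.44 on each array and a 95th percentile of 7.15 to 7.31. Of the 33 member probe sets, 25 lay under that percentile on all 4 arrays, so their levels cannot be told from background by this measure. The share of all probe sets under it was not counted, so the 25 are not read as a trait of these genes.

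**Figure D1:**
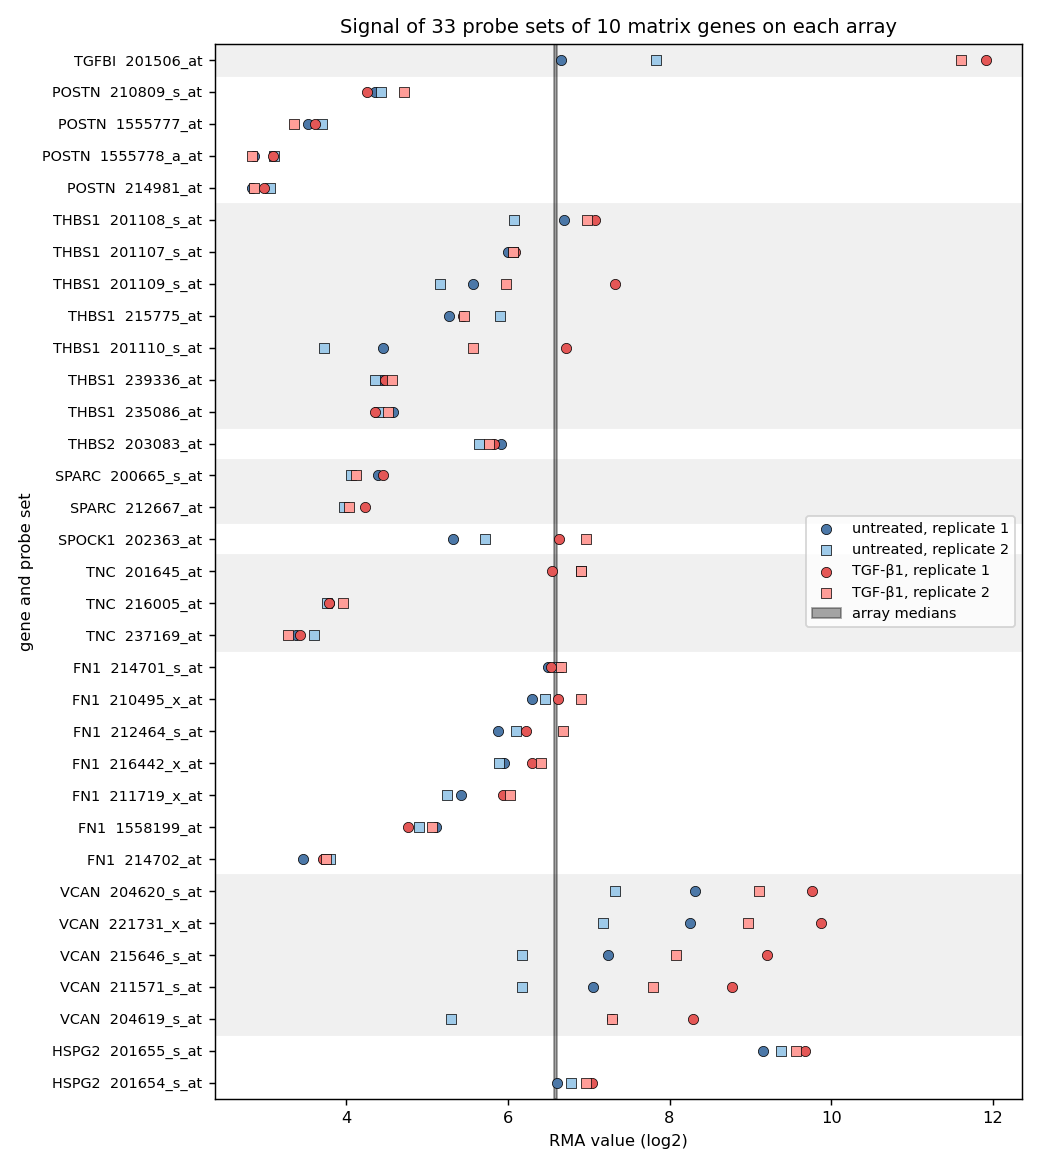
RMA values (log2, horizontal axis) of the 33 probe sets of the 10 genes (vertical axis) on each of the 4 arrays, with the array medians of 6.57 to 6.61 as a grey line. TGFBI, SPOCK1, VCAN and some probe sets of THBS1 and FN1 read higher in the TGF-β1 arrays, and all 4 POSTN and both SPARC probe sets lie left of the medians on every array.

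Of the 10 genes, 2 rose in the TGF-β1 arrays and 0 fell, TGFBI and SPOCK1 (limma, Benjamini-Hochberg adjusted p under 0.05 over 19775 genes, each gene by the probe set with the highest mean). Among all genes 1.87% rose and 1.47% fell. At an unadjusted p under 0.05, 5 of the 10 were higher and 0 lower, against 8.18% and 8.54% of all genes. The same 2 probe sets were the ones called when each of the 54613 probe sets was tested on its own, where 0.65% of all probe sets rose and 0.304% fell. The median log2 fold change over the 10 genes was 0.22, against -0.0036 over all genes. In 18 of the 33 probe sets both TGF-β1 arrays lay above both untreated arrays and in 0 below, where 19.2% of all probe sets lay above and 21.6% below. Probe sets of a gene read the same RNA and are not independent, and the genes were chosen with earlier results of these data known.

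TGFBI, a secreted protein that binds collagens and integrins and is named for its induction by TGF-β, changed most of the 10. Untreated, it read 6.65 and 7.83, and with TGF-β1 11.91 and 11.60. The groups were far apart, although the untreated arrays differed by more than the TGF-β1 arrays did, and untreated replicate 1 lay close to the array median. In bulk RNA, more cells with a transcript and more of it per cell cannot be told apart. This is a change of 4.51 ± 0.36 on the log2 scale (SE, n = 2 per group, 95% interval 3.64 to 5.39, limma adjusted p = 0.00476), the third highest of 19775 genes. TGFBI passed with each array left out in turn, with log2 fold changes of 3.93 to 5.10 and limma adjusted p from 0.00791 to 0.0460. Tested among all probe sets, where the correction is heavier, the adjusted p was 0.0129 and passed only without untreated replicate 2 (0.0482) when an array was left out.

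POSTN, or periostin, a product of stromal cells in the gut that binds collagen and integrins, stayed dim. Its 4 probe sets had means over the 4 arrays of 4.44, 3.55, 2.98 and 2.93, all under 5. The probe set with the highest mean read 4.36 and 4.44 untreated and 4.26 and 4.71 with TGF-β1. The groups overlapped in all 4 probe sets, and the log2 fold changes ran from -0.12 to 0.09. At such levels a change of a low transcript may not be visible on the array.

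SPOCK1, or testican-1, a proteoglycan of the SPARC family, was the other gene that rose. Untreated, it read 5.32 and 5.72, and with TGF-β1 6.63 and 6.97. It was dim in the untreated group and lay just above the array medians in the TGF-β1 group, without overlap. The change was 1.28 ± 0.18 on the log2 scale (SE, n = 2 per group, 95% interval 0.85 to 1.71, limma adjusted p = 0.0225). It lay under the olfactory receptor 95th percentile on all 4 arrays. By this measure its levels cannot be told from background, and the size of the change is not exact. The call was lost with any 1 of the 4 arrays left out (limma adjusted p from 0.0623 without untreated replicate 2 to 0.135 without untreated replicate 1), with log2 fold changes of 1.08 to 1.48.

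SPARC itself, a collagen-binding protein of the stroma also called osteonectin, stayed dim. Its probe set 200665_s_at read 4.40 and 4.06 untreated and 4.46 and 4.13 with TGF-β1, and 212667_at read 4.003 and 3.980 against 4.23 and 4.04. The first overlapped between groups, and the second was higher by less than the 2 TGF-β1 arrays differed from each other. The log2 fold changes were 0.06 ± 0.17 and 0.14 ± 0.12 (SE), and neither passed by limma (adjusted p 0.951 and 0.727, each over all probe sets).

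**Figure D2:**
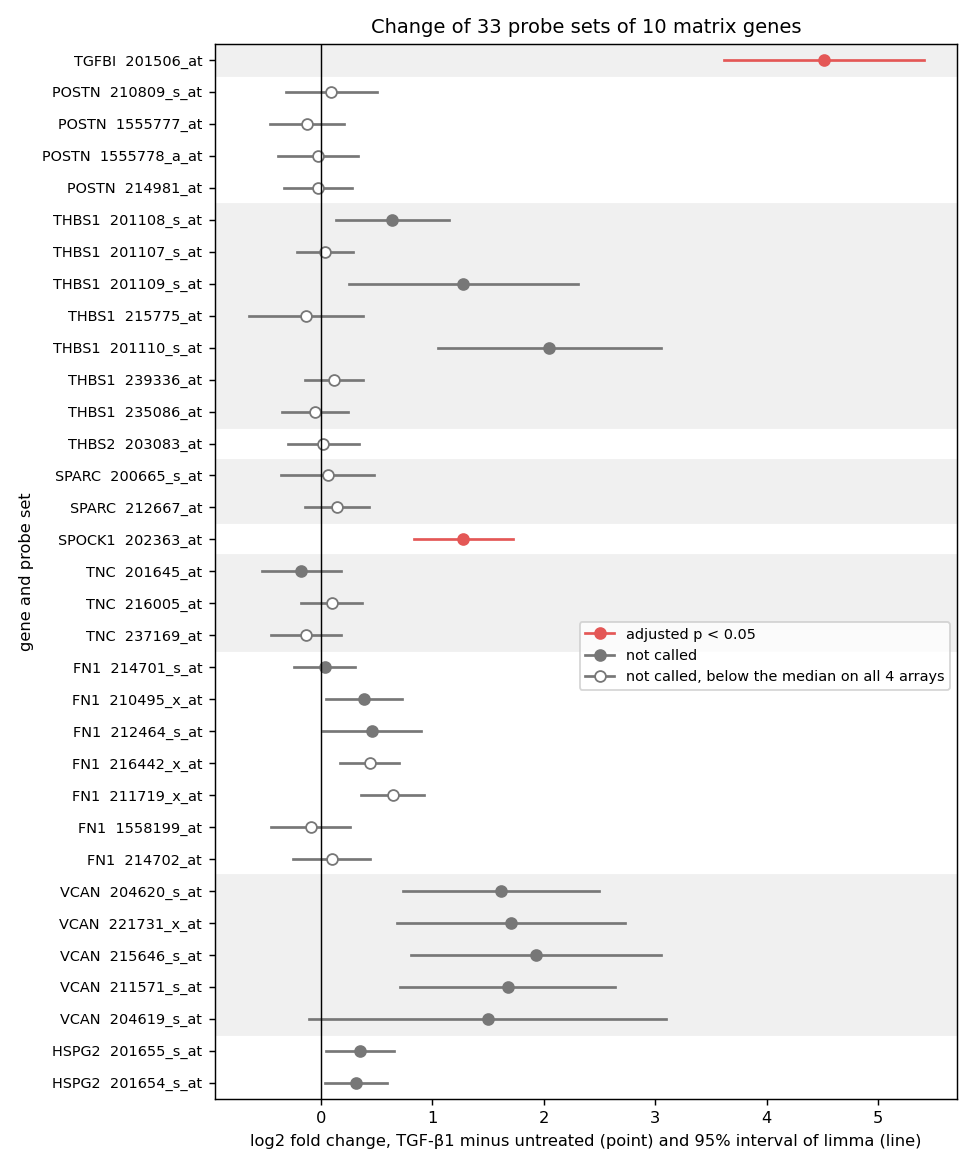
Log2 fold change (TGF-β1 minus untreated, horizontal axis) of each of the 33 probe sets (vertical axis) with the 95% interval of the limma fit over all probe sets, n = 2 arrays per group. Red marks the 2 probe sets called at adjusted p under 0.05, TGFBI at 4.51 and SPOCK1 at 1.28, and open points mark probe sets below the array median on all 4 arrays.

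VCAN, or versican, a large chondroitin sulfate proteoglycan that binds hyaluronan, read higher in the TGF-β1 arrays by all 5 probe sets but did not pass. Probe set 204620_s_at, used for the gene, read 8.31 and 7.32 untreated and 9.77 and 9.10 with TGF-β1. Probe set 221731_x_at read 8.26 and 7.18 against 9.87 and 8.97. Both lay above the array medians on every array, and the groups did not overlap in either.
Probe set 215646_s_at read 7.24 and 6.18 untreated and 9.20 and 8.08 with TGF-β1. Probe set 211571_s_at read 7.05 and 6.17 against 8.78 and 7.80. In these the groups were again apart, and only untreated replicate 2 lay under the array median. Probe set 204619_s_at read 7.29 and 5.30 against 8.30 and 7.29, so that untreated replicate 1 and TGF-β1 replicate 2 met at the same value.

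The log2 fold changes of the 5 VCAN probe sets were 1.496 to 1.93, which is 2.82-fold to 3.82-fold. The gene's change was 1.62 ± 0.35 on the log2 scale (SE, n = 2 per group, 95% interval 0.76 to 2.48, limma adjusted p = 0.0732). That change ranked 62 of 19775 genes from the top, while its SE was larger than that of 99.5% of genes (median SE 0.11). In all 5 probe sets replicate 1 read higher than replicate 2 in both groups, by 0.88 to 1.99 in the untreated and 0.67 to 1.12 in the TGF-β1 arrays. Among the other 28 member probe sets, replicate 1 was higher in both groups in 6 and lower in both in 7. In 204619_s_at the untreated arrays differed by 1.99, more than the groups did, and the gene did not pass with any array left out (adjusted p from 0.0860 to 0.285).

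HSPG2, or perlecan, a heparan sulfate proteoglycan of basement membranes, was not dim in either group. Probe set 201655_s_at read 9.16 and 9.38 untreated and 9.68 and 9.56 with TGF-β1, and 201654_s_at read 6.61 and 6.78 against 7.05 and 6.97. The levels of 201654_s_at lay under the olfactory receptor 95th percentile on all 4 arrays. In both probe sets the TGF-β1 arrays lay above the untreated arrays by a small step. The log2 fold changes were 0.35 ± 0.12 and 0.31 ± 0.11 (SE), and neither passed by limma (adjusted p 0.299 and 0.320, each over all probe sets).

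**Figure D3:**
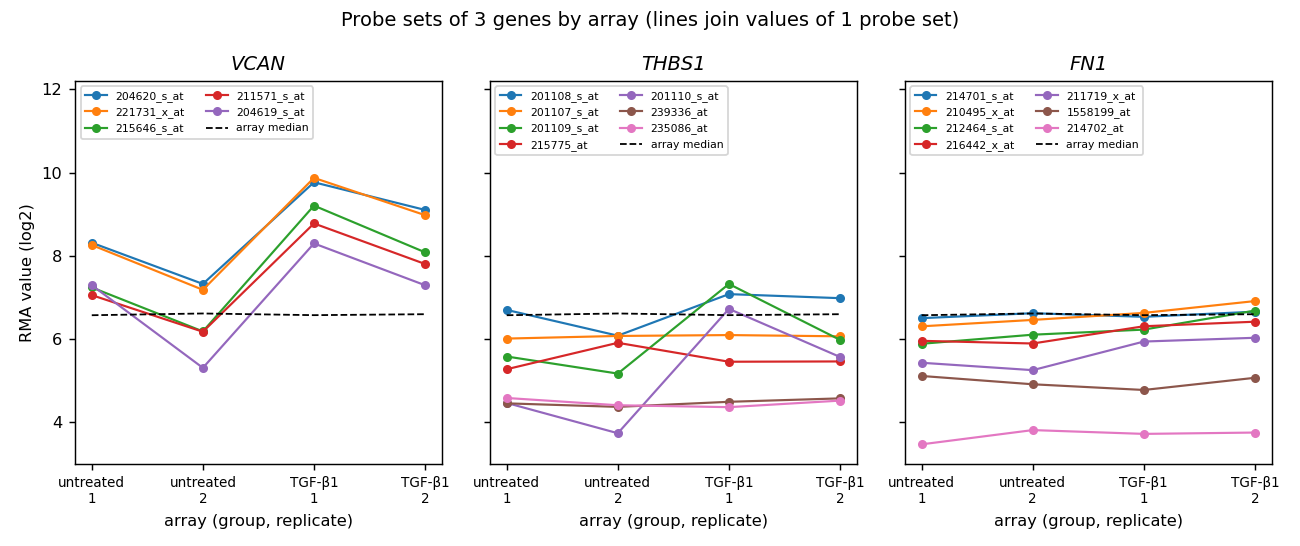
RMA values (log2, vertical axis) of every probe set of VCAN (5), THBS1 (7) and FN1 (7) on the 4 arrays (horizontal axis), with the array median as a dashed line. In all 5 VCAN lines replicate 1 lies above replicate 2 in both groups. The THBS1 lines part, 201110_s_at rising from 4.46 and 3.73 to 6.72 and 5.57 and 201107_s_at staying between 6.01 and 6.09.

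The thrombospondins THBS1 and THBS2 are multimeric glycoproteins that bind CD47 and CD36, and THBS1 is known to activate latent TGF-β. The 7 THBS1 probe sets disagreed. Probe set 201110_s_at read 4.46 and 3.73 untreated and 6.72 and 5.57 with TGF-β1, or 2.05 ± 0.41 higher on the log2 scale (SE, adjusted p = 0.0950 by limma over all probe sets). Probe set 201109_s_at read 5.58 and 5.17 against 7.32 and 5.98, or 1.28 ± 0.42 higher (adjusted p = 0.266). In both the groups were apart, with TGF-β1 replicate 1 the only array above the median.
The THBS1 probe set used for the gene, 201108_s_at, read 6.70 and 6.08 against 7.08 and 6.98, or 0.64 ± 0.20 higher (SE, adjusted p = 0.178 by limma over genes). With 1 array left out, this log2 fold change ran from 0.33 (without untreated replicate 2) to 0.95 (without untreated replicate 1), and that of 201109_s_at from 0.61 (without TGF-β1 replicate 1) to 1.95 (without TGF-β1 replicate 2). The other 4, all dim in both groups, had log2 fold changes of -0.13 to 0.12. The size of the THBS1 change therefore depended on the probe set, and no probe set passed. THBS2, an inhibitor of vessel growth, read 5.91 and 5.64 untreated and 5.84 and 5.76 with TGF-β1. It was dim on every array, and the groups overlapped (log2 fold change 0.021 ± 0.12, SE).

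FN1 encodes fibronectin, the adhesive glycoprotein through which many cells attach to matrix, and its probe sets also differed. Probe set 214701_s_at, used for the gene, read 6.50 and 6.62 untreated and 6.53 and 6.65 with TGF-β1, with overlap between the groups. Its change was 0.035 ± 0.11 on the log2 scale (SE). Its mean over the 4 arrays, 6.575, was close to the 6.572 of 210495_x_at. With the probe sets of FN1 averaged, the log2 fold change was 0.28 (limma adjusted p = 0.237). In 4 other probe sets both TGF-β1 arrays lay above both untreated arrays, with log2 fold changes of 0.39 to 0.64. Of these 4, 3 bear the suffix x_at, which the maker gives to probe sets whose probes may also match other sequences.
The largest of these was in 211719_x_at, which read 5.43 and 5.25 untreated and 5.94 and 6.03 with TGF-β1 (0.64 ± 0.12 SE, adjusted p = 0.0764 by limma over all probe sets). It was dim on every array, as was 216442_x_at. None of the 7 passed by limma over all probe sets, and 4 had an unadjusted p under 0.05, so a change in fibronectin RNA was not established at this number of arrays. Over all members 15 of the 33 probe sets had an unadjusted p under 0.05, all 15 higher in TGF-β1, where 6.34% of all probe sets were higher and 6.87% lower. Of these, 8 were also at least 2-fold higher and none was 2-fold lower, against 0.721% and 0.229% of all probe sets.

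TNC, or tenascin-C, a glycoprotein of remodelling tissue and tumour stroma, was the only member with a log2 fold change below 0 by the probe set used for the gene. That probe set, 201645_at, read 6.91 and 6.90 untreated and 6.55 and 6.91 with TGF-β1. All 4 values lay under the olfactory receptor 95th percentile. Only TGF-β1 replicate 1 was lower than the untreated arrays, so the groups overlapped. The change was -0.18 ± 0.14 on the log2 scale (SE, adjusted p = 0.644 by limma), and without that array it was 0.0024. The other 2 TNC probe sets were dim, at means of 3.83 and 3.43.

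The genes with values most like those of the 2 called members were sought by the distance over the 4 arrays after subtraction of each gene's own mean. For TGFBI these were CCN2 (distance 0.75), SNAI2 (0.88) and MMP10 (0.96). Their log2 fold changes were 4.59, 4.06 and 3.63. For SPOCK1 they were JUN (0.08), MYOM3 (0.10) and CCN1 (0.17), with log2 fold changes of 1.30, 1.21 and 1.38. With 4 arrays, a small distance mainly means a similar difference between the groups.

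Other matrix glycoproteins and proteoglycans, a list of 65 genes with 64 measured, gave 1 gene that rose and 0 that fell by limma (3 higher and 3 lower at an unadjusted p under 0.05), with a median log2 fold change of 0.02 against -0.0036 over all genes. The 1 called gene is 1.56% of the list, against 1.87% of all genes that rose, so the list's count lies near the background. Its counts at an unadjusted p lie under the 8.18% higher and 8.54% lower of all genes. Of the 64, 36 were dim on all 4 arrays, against 33.9% of all genes. The 1 that rose, named after its values were seen, was SDC4, a cell-surface heparan sulfate proteoglycan that binds fibronectin. It read 10.52 and 10.50 untreated and 11.15 and 11.10 with TGF-β1 (log2 fold change 0.61 ± 0.10 SE, limma adjusted p = 0.0333). The replicates were close and the groups clearly apart, but with any 1 of the 4 arrays left out it did not pass (0.153 to 0.186).
The 2 genes of this list with the largest log2 fold change did not pass. SMOC2, a matricellular protein of the SPARC family, read 10.62 and 11.18 untreated and 9.47 and 10.04 with TGF-β1, which is -1.15 ± 0.25 on the log2 scale (SE, adjusted p = 0.0713 by limma). NID1, a basement membrane linker, read 9.09 and 10.10 against 10.17 and 10.37, or 0.67 ± 0.31 higher (adjusted p = 0.363). The groups did not overlap in either, and the untreated replicates of NID1 differed by more than the groups did. Without untreated replicate 1 the NID1 change was 0.17, and without untreated replicate 2 it was 1.18. With each gene's probe sets averaged, SMOC2 was at -0.63 (limma adjusted p = 0.285) and NID1 at 0.37 (0.666).

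Of 22 measured receptors and partners of these proteins, out of 25 in the list, 4 rose and 0 fell by limma (9 higher and 0 lower at an unadjusted p under 0.05), with a median log2 fold change of 0.15. Of all genes, 1.87% rose and 1.47% fell, and 8.18% were higher and 8.54% lower at an unadjusted p. ITGA2, an integrin chain of the collagen receptor, read 9.32 and 9.66 untreated and 12.44 and 12.64 with TGF-β1 (8.29-fold, limma adjusted p = 0.00129). ITGB5, which pairs with ITGAV to bind matrix proteins with an RGD site, read 10.23 and 10.25 against 12.16 and 12.27 (3.92-fold, adjusted p = 0.00156). ITGAV read 11.33 and 11.36 against 11.88 and 12.10 (1.57-fold, adjusted p = 0.0442).
Both chains of this integrin thus rose, the αV chain by less. EGFR, the epidermal growth factor receptor, which EGF-like repeats of tenascin-C are known to engage, read 9.46 and 9.73 against 11.88 and 11.66 (4.51-fold, adjusted p = 0.00261). With its probe sets averaged, the EGFR log2 fold change was 1.02 in place of 2.17, and it still passed (limma adjusted p = 0.0158). ITGA2, ITGB5 and EGFR passed with each array left out, and ITGAV with none (0.111 to 0.234). The list was drawn up with earlier results of these data known, so its count is a description.

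**Figure D4:**
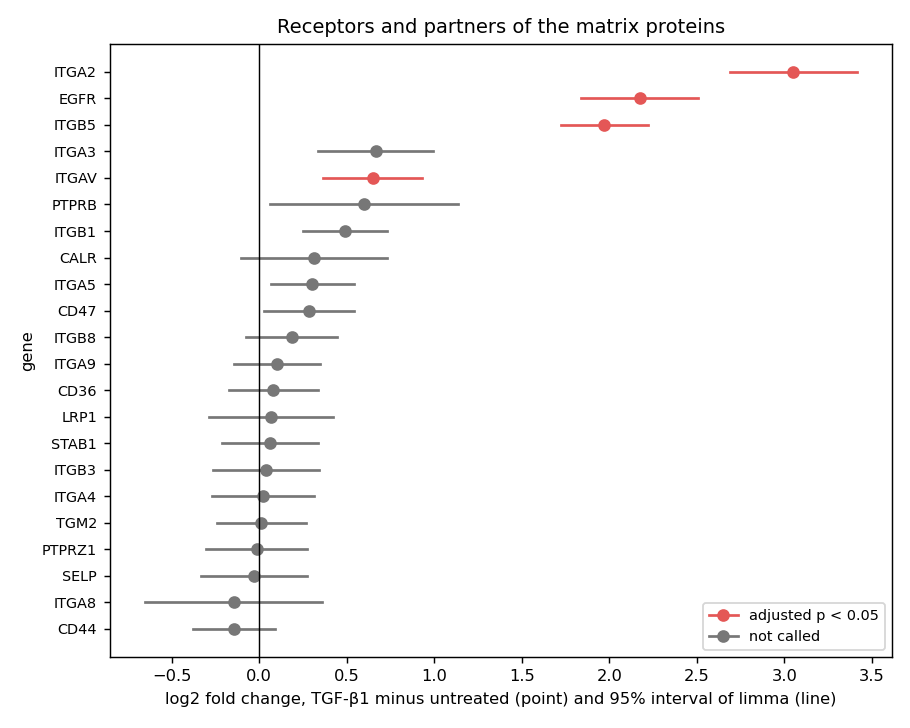
Log2 fold change (TGF-β1 minus untreated, horizontal axis) of 22 receptors and partners of the matrix proteins (vertical axis), each with the 95% interval of the limma fit over all genes, n = 2 arrays per group. ITGA2, EGFR, ITGB5 and ITGAV, in red, passed at adjusted p under 0.05, and CD44 and ITGA8 have the lowest values.

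Markers were read to see what the RNA came from. All 12 colon epithelial markers lay above the array medians on all 4 arrays, as did 12040 of all 19775 genes. KRT20 lay under the olfactory receptor 95th percentile on 2 arrays, and the other markers of this list on 0. By limma 2 of the 12 fell and 0 rose, against 1.47% and 1.87% of all genes. An unadjusted p under 0.05 was reached by 4 that were lower and 1 that was higher, against 8.54% and 8.18% of all genes. LGR5, a marker of intestinal stem cells, read 12.23 and 12.24 untreated and 10.68 and 11.10 with TGF-β1 (log2 fold change -1.34, limma adjusted p = 0.0136). CDX2, an intestinal transcription factor, read 9.32 and 9.14 against 8.57 and 8.43 (-0.73, limma adjusted p = 0.0327).

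Of 10 fibroblast markers 0 were called by limma. At an unadjusted p under 0.05, 0 were higher and 2 lower, against 8.18% and 8.54% of all genes. LUM, PDGFRA, PDGFRB and FAP were dim on all 4 arrays, while COL1A1, DCN, THY1 and ACTA2 lay above the array medians on all 4. THY1 nevertheless lay under the olfactory receptor 95th percentile on all 4 arrays, DCN on 3, ACTA2 on 1 and COL1A1 on 0. COL1A1, a collagen I chain, read 9.29 and 9.34 untreated and 9.37 and 9.31 with TGF-β1. Its probe set, like that of DCN, bears the suffix x_at, so its probes may also match other sequences. COL3A1, the collagen III chain, read 9.18 and 7.48 against 7.38 and 5.83, and its replicates differed about as much as the groups. The mean level of the 10 was 6.65 to 6.77 untreated and 6.44 to 6.52 with TGF-β1. Endothelial markers (5 of 8 dim) and leukocyte markers (7 of 8 measured dim) gave 0 calls too, with 0 higher and 1 lower among both at an unadjusted p under 0.05 by limma. Of all genes 33.9% were dim on all 4 arrays. PECAM1, TEK and CD3E lay above the array medians on all 4 arrays. TEK lay under the olfactory receptor 95th percentile on all 4, CD3E on 1 and PECAM1 on 0. The part of any other cell type in the changes of the 10 genes was not tested.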

How the data were processed

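Total RNA of 4 samples was hybridised as biotin-labelled cRNA to HG-U133 Plus 2.0 arrays, and groups came from the sample titles. Per the series' design text and the submitters' processing notes, the authors deposited RMA values (background correction, quantile normalization, summarization), taken as log2 from their range. Software version and detection calls are not given in the sources used here. Quantile normalization hides a shift shared by most transcripts.

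Control probe sets (62) were left out. The annotation gave 1 symbol for 41097 probe sets, several for 1801 and none here for 11777. The test was that of limma 3.58.1 (R 4.3.3; lmFit and eBayes, two-sided, all 4 arrays, no covariate) over 19775 genes, each by its probe set with the highest mean, and over 54613 probe sets. Calls are at Benjamini-Hochberg adjusted p under 0.05, with 6.13 and 5.97 degrees of freedom. A permutation test of 2 against 2 cannot go below p = 0.333 and was not used. Nothing says that replicates were separate cultures, so p-values speak only of the spread among these arrays, which may be technical, and their number limits the precision.

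The members and lists were chosen with earlier results of these data known. Named genes are the members, up to 5 called genes per list with the largest change (the 2 largest if fewer than 2 were called), and the 3 genes nearest each called member. On simulated data with 50 genes changed at each size, the fit called 0 at 1.5-fold, 29 at 2-fold, 42 at 4-fold and 48 at 8-fold. It made 0 false calls. The fit missed genes at every size, most often at 1.5-fold and 2-fold, so a gene not called here may still have changed. The simulated noise was independent between arrays, while deviations of same-numbered arrays correlated at 0.364 in the data. These counts, the 0 false calls among them, therefore hold for the simulation only. Alternatives were a minimum mean of 5, an intensity trend, median centring, a replicate block, each array left out, averaged probe sets, and unadjusted p under 0.05 with 2-fold change.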

Additional observations from a re-analysis of the deposited data

How the results depend on the processing

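The 2 called members stayed at 2 with features of a mean under 5 left out, an intensity trend, median centring and averaged probe sets. Without 1 array, 1 member gene (TGFBI) and 0 to 1 member probe sets rose, and 0 fell. By unadjusted p under 0.05 with a 2-fold change, 8 member probe sets rose. That rule gave 201 higher and 73 lower genes in place of 369 and 291, and 0 higher and 1 lower gene of the other glycoprotein and proteoglycan list, which with averaged probe sets had 2 higher and without 1 array 0 (range 0 to 0). Without 1 array, 64 to 85 genes rose and 6 to 21 fell, and 0 to 25 probe sets rose and 0 to 1 fell, in place of 355 and 166. The intensity trend gave 253 lower probe sets.

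The replicate numbers are shared by the groups, but no label says that they pair the samples (deviations of same-numbered arrays correlated at 0.364). With the replicate block 84 probe sets rose and 4 fell. The block gave 3 member genes, TGFBI, SPOCK1 and VCAN (limma adjusted p of VCAN 0.0241), and 3 member probe sets, all of VCAN (0.0413 to 0.0469), while the probe sets of TGFBI (0.0659) and SPOCK1 (0.0554) did not pass among all probe sets. In the other glycoprotein list it gave 0 higher and 1 lower gene, SMOC2 (0.0239), and it lost SDC4 (0.0512) and ITGAV (0.0591).

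Changes near 0 turned sign. POSTN was -0.019 with averaged probe sets and THBS2 -0.0018 with median centring. With 1 array left out, log2 fold changes ran from -0.13 to 0.32 for POSTN, -0.11 to 0.16 for THBS2, -0.10 to 0.23 for SPARC, -0.36 to 0.0024 for TNC and -0.027 to 0.096 for FN1, by gene and by the same probe sets. For the other probe sets they ran from -0.25 to 0.0051 (1555777_at), -0.15 to 0.11 (1555778_a_at) and -0.14 to 0.089 (214981_at) for POSTN, -0.45 to 0.18 (215775_at) and -0.14 to 0.033 (235086_at) for THBS1, and -0.24 to 0.056 (1558199_at) and -0.075 to 0.27 (214702_at) for FN1. None of these passed in any setting. The cause of these shifts was not tested, beyond the fewer arrays in the left-out fits. Of the 33 member probe sets, 17 were dim in both groups, against 46.9% of all probe sets. At such signals background limits what can be seen.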
